A study of Mus musculus with 9 samples.

Results

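The transcripts described here are those of 10 genes that carry glucose into the cell, turn it into lactate, export the lactate, or switch this route on when oxygen is short. They were taken by name from the table of mouse back skin: Slc2a1, Hk1, Hk2, Pfkp, Pfkfb3, Aldoa, Pkm, Ldha, Slc16a3 and Hif1a. The table holds 29205 genes, and 11 of its entries carry these 10 names, because Aldoa has 2 Ensembl entries. All 11 entries passed the filter on low counts in each comparison, so none is missing from the results.

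The skin came from male BALB/c mice of 6 to 8 weeks, in 3 groups of 3 libraries. According to the paper, every mouse had its back shaved and cleared of hair with a depilatory cream. The control group received neither imiquimod nor the soup. The IMQ group received 62.5 mg of 5% imiquimod cream on the skin daily for 5 days; imiquimod activates Toll-like receptors, and mice treated with it develop a psoriasis-like dermatitis. The LYS group received the same cream and, by mouth, Longkui Yinxiao soup, a Chinese herbal decoction given for psoriasis, and skin of all groups was collected on day 13. The labels do not say whether the 3 libraries of a group came from separate mice, so the p-values measure the spread between these libraries only.

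Glycolysis begins when GLUT1, the product of Slc2a1, lets glucose into the cell and a hexokinase traps it as glucose 6-phosphate. Phosphofructokinase commits the sugar to the pathway, aldolase splits it, pyruvate kinase makes pyruvate and ATP, lactate dehydrogenase A converts pyruvate to lactate, and MCT4, the product of Slc16a3, carries lactate out. HIF-1α, the product of Hif1a, is destroyed when oxygen is plentiful; when it persists it pairs with ARNT and binds short DNA elements near many of these genes. HIF-1α is held down mainly at the level of protein, which was not measured here. Keratinocytes and activated neutrophils are both known to rely on this route.

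The core of the HIF-binding element is ACGTG or GCGTG on either strand, and both were searched in the 250 bases before each RefSeq transcription start (GRCm38.p6). The 10 symbols have 16 such windows, of which 13 hold a match (81.3%), against 38.6% of all 32851 mouse windows. The overlapping Aldoa windows that hold a match share the same site, which is therefore counted more than once. The genes were picked for their part in glycolysis and hypoxia, so this contrast is a description and not a test. ACGTG is in 16.57% of all windows and GCGTG in 28.16%. Each of the 10 symbols has a match in at least 1 window. The windows of Slc2a1, Hk2, Slc16a3 and Hif1a, whose transcripts rose in the IMQ group, and of Ldha, whose transcript was not called there, are printed 5′ to 3′ on the gene's strand, with capitals marking each match on either strand (CACGT and CACGC are the same cores read on the other strand, and CACGTG holds ACGTG on both).
Slc2a1, chr4:119108495-119108744, plus strand: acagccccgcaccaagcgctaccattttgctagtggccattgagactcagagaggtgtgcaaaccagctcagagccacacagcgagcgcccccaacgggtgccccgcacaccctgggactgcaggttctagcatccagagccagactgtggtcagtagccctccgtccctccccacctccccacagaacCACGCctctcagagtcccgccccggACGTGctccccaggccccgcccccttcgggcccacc
Hk2, chr6:82774455-82774704, minus strand: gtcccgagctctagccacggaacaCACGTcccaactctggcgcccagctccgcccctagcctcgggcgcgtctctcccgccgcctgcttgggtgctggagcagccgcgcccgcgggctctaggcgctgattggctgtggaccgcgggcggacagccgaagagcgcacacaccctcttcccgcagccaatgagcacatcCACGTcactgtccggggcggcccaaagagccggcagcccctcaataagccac
Slc16a3, chr11:120948817-120949066, plus strand: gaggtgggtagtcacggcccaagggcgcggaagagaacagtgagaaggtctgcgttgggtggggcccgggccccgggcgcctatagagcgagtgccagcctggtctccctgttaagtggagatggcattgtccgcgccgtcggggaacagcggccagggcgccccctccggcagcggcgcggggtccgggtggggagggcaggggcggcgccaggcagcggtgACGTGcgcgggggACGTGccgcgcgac
Hif1a, chr12:73907617-73907866, plus strand: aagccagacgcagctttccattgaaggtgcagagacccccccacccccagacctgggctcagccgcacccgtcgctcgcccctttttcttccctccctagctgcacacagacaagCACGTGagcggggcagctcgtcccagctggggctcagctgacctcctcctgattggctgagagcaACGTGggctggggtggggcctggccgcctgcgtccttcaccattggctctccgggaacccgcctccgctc
Ldha, chr7:46845554-46845803, plus strand: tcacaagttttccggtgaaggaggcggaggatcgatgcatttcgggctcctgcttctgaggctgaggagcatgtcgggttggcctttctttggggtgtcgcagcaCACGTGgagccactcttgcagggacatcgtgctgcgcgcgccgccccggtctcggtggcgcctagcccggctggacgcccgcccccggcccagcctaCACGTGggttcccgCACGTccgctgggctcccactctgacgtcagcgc
The printed Ldha window has matches at 3 places and its other window at 1, the Slc2a1, Hk2, Slc16a3 and Hif1a windows at 2 places each, and the Pfkp window and a window of Hk1 at 3. A match describes the letters only, and no binding was measured.

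**Figure D1:**
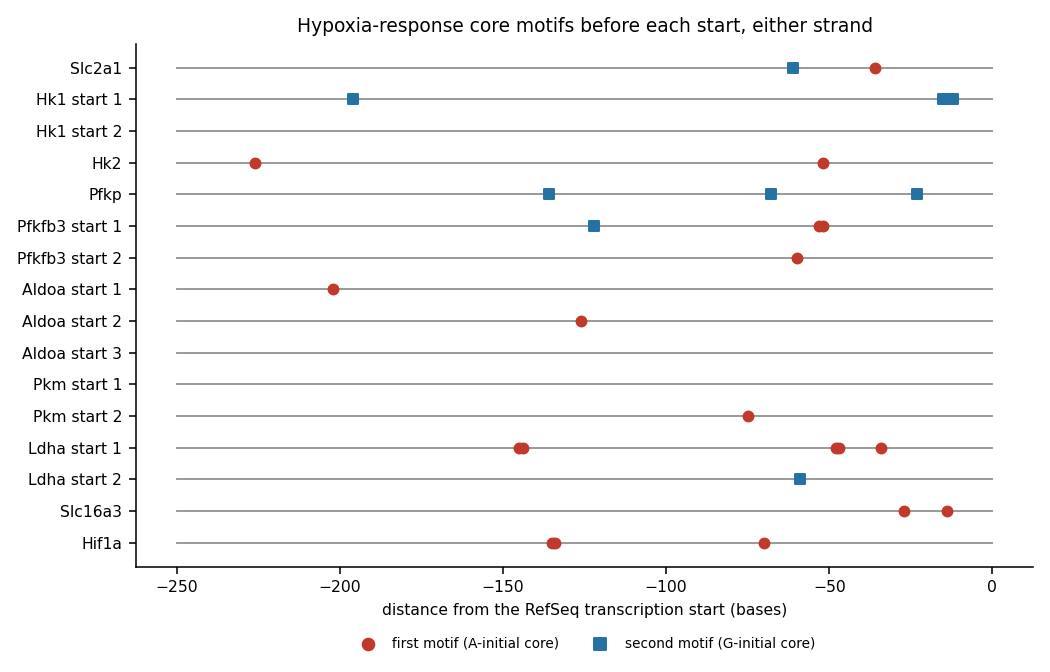
Matches to the cores ACGTG (circles, the A-initial core) and GCGTG (squares, the G-initial core) in the 250 bases before each of the 16 RefSeq starts of the 10 genes; the x axis is the distance from the start in bases, and starts of 1 gene are numbered by coordinate. Matches lie in 13 of the 16 windows, and a window of Hk1, of Aldoa and of Pkm has none. The matches of Aldoa are the same site, seen from starts that lie close together.

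Depth was 14658645 to 19609878 counts per library, and the top 20 genes held 8.66% to 14.4% of the counts. Every LYS library (at most 16743869 counts) was below every IMQ and control library (at least 16915191). Values per library are given as CPM, counts scaled to library size with edgeR's TMM method, and levels of different genes are compared in FPKM, which also divides by gene length. The TMM factors were 1.104 to 1.197 in the control, 0.790 to 0.915 in the IMQ and 0.978 to 1.099 in the LYS libraries. The summed CPM of marker lists for cell types of the skin differed strongly between the groups. In the IMQ group the 10 suprabasal keratinocyte markers were all called higher, and their sum was 39304 to 64906 CPM against 5327 to 9383 in the control group and 14456 to 28033 in the LYS group. The sum of 8 basal keratinocyte markers was 2257 to 3343 in the control, 11021 to 12964 in the IMQ and 7577 to 13342 in the LYS libraries. These 8 did not all move together. Against control, 6 were called higher and 1 lower in the IMQ group, and their median rise was 0.76 on the log2 scale. The LYS group had 5 of them called higher and 1 lower. Such sums are weighted towards the most abundant markers. Neutrophil markers summed to 90.0 to 128 CPM in the control, 21199 to 28937 in the IMQ and 5936 to 17450 in the LYS libraries. Of the 11 neutrophil markers tested between IMQ and control, 10 were called higher, and the median rise was 4.25 on the log2 scale. Skeletal muscle (12439 to 13638, 2410 to 6559 and 5894 to 11518 CPM) and fibroblast (22217 to 28327, 3438 to 10852 and 9372 to 18133) markers ran the other way. Hair follicle markers were low in both treated groups (2637 to 5642 CPM in the control, 31.9 to 37.3 in the IMQ and 11.8 to 32.7 in the LYS libraries), and Krt31, a hair keratin, was at 0 in every IMQ and LYS library. The part of these shifts in the results below was not tested. In bulk skin, more cells of a type and more RNA per cell cannot be told apart.

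By level, Aldoa, Ldha and Pkm stood above all other members in every group. In the control group the FPKM was 601 ± 51.8 for Aldoa, 295 ± 25.2 for Ldha and 133 ± 2.14 for Pkm (SD, n = 3), and these 3 did not overlap. The next were Pfkfb3 at 19.2 ± 3.25, Hif1a at 16.4 ± 2.14 and Hk2 at 14.4 ± 1.66 FPKM, each overlapping with the next of these 3, and Slc2a1 stood at only 7.93 ± 0.28. In the IMQ group Slc2a1 was 4th in order, at 56.9 ± 1.27 FPKM, above Hif1a at 46.1 ± 2.92 and Hk2 at 24.6 ± 2.06, with no overlap between these neighbours. In the LYS group Slc2a1, at 60.7 ± 23.7 FPKM, overlapped with Hif1a at 45.3 ± 11.2, which overlapped with Hk2 at 33.7 ± 5.54.

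The first comparison asked how the model itself differed from control skin. A gene was called when edgeR's quasi-likelihood test gave a Benjamini-Hochberg adjusted p below 0.05 and the log2 fold change was beyond 0.58 in either direction. Of the 11 entries, 7 were called higher in the IMQ group (Slc2a1, Hk1, Hk2, Pfkp, Pkm, Slc16a3 and Hif1a) and 1 lower (the second Aldoa entry), while Pfkfb3, Aldoa and Ldha were not called. The change was broad in this skin: 51.0% of 15976 genes tested were called, 24.1% higher and 26.9% lower. The median log2 fold change was 0.96 over the 11 entries and -0.062 over all genes tested. The groups did not overlap in 9 of the 11 entries, against 70.0% of all genes tested. In the comparison of the LYS with the IMQ group, which asks what the soup changed in the model, none of the 11 entries was called. That fit called 0 of all 15460 genes tested, so this count says nothing particular about the members. The 2 comparisons share the IMQ libraries, so their values are given side by side and not as evidence for each other.

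**Figure D2:**
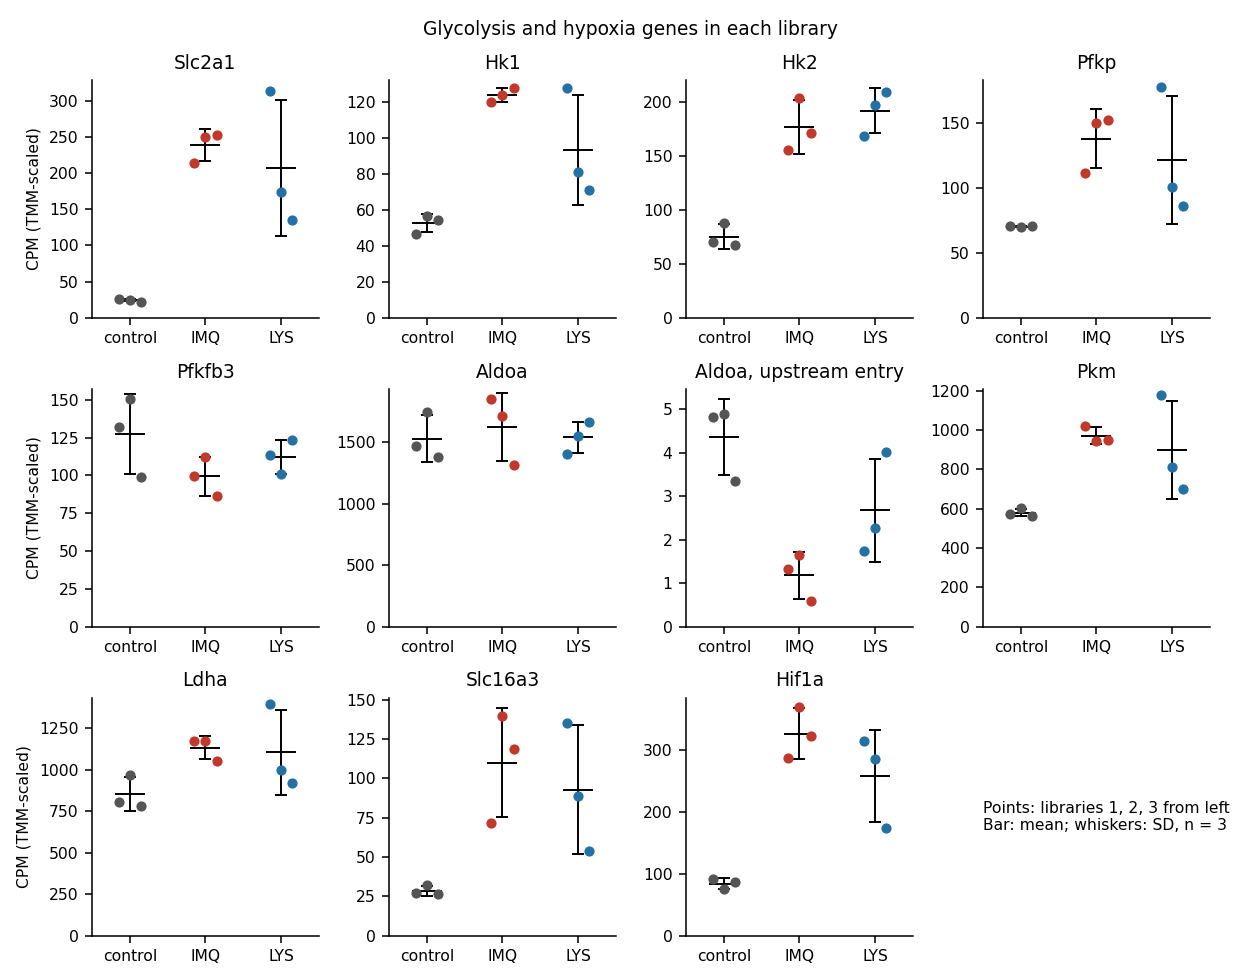
TMM-scaled CPM (y axis, linear from 0) of the 11 entries in each library of the control, IMQ and LYS groups; points are libraries 1 to 3 from left, the wide bar is the mean and the whiskers the SD (n = 3). Slc2a1 lies between 22.4 and 25.2 CPM in the control libraries and between 214 and 253 in the IMQ libraries, and library LYS 1 is the highest LYS library for Slc2a1, Hk1, Pfkp, Pkm, Ldha, Slc16a3 and Hif1a.

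Among the members, the glucose carrier Slc2a1 differed most from the control group. Slc2a1 (chr4:119108711-119137983, plus strand; gene positions here and below are in GRCm38) was at 25.2, 25.2 and 22.4 CPM in the control libraries, 214, 250 and 253 in the IMQ libraries, and 314, 173 and 135 in the LYS libraries. Every IMQ and LYS library was thus far above every control library, and the LYS libraries reached above and below the IMQ range. Slc2a1 was 9.80-fold higher in the IMQ than in the control group (log2 fold change 3.29 ± 0.13 SE, adjusted p = 4.06e-06 by edgeR's quasi-likelihood test). It was called in all 16 alternative analyses, in which the log2 value ran from 2.70 to 3.38. Against the control group it was also called in the LYS group (log2 3.10 ± 0.32, adjusted p = 0.000919 by edgeR). Between the LYS and IMQ groups the log2 difference was -0.15, with a 95% interval from -0.83 to 0.54, and it turned to 0.095 when counts were scaled by library totals alone. Without library LYS 1 this difference was -0.56 (adjusted p = 0.0413 by edgeR), below the 0.58 required for a call.

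Among the 8 SLC2 carriers compared, the one with the largest share differed between the control and IMQ groups. Slc5a1, given below, was not part of these shares. Of the summed FPKM of 8 SLC2 carriers, Slc2a1 held 16.0%, 12.0% and 16.4% in the control libraries, 62.7%, 72.2% and 74.5% in the IMQ libraries and 74.8%, 53.0% and 43.9% in the LYS libraries. Slc2a4, the insulin-responsive carrier of muscle and fat, held 60.0% ± 4.52 in the control, 12.4% ± 9.23 in the IMQ and 26.2% ± 14.7 in the LYS group (SD, n = 3). Adipocyte markers summed to 6025 to 14332 CPM in the control, 719 to 2095 in the IMQ and 1929 to 4653 in the LYS libraries, and all 10 were called lower in the IMQ than in the control group; their part in the share was not tested. With 3 libraries against 3 an exact two-sided permutation test cannot give a p under 0.1, and both changes between control and IMQ reached this smallest p (0.209 after adjustment over the 90 share comparisons made). Among the other carriers, Slc5a1, a sodium-coupled glucose transporter, was higher in the IMQ than in the control group (19.5 ± 7.29 against 377 ± 46.5 CPM, log2 4.26, adjusted p = 2.07e-05 by edgeR), as was Slc2a3, the high-affinity carrier of neurons and leukocytes (log2 2.82, adjusted p = 0.000294). Slc2a13, a myo-inositol carrier, fell by 2.82 on the log2 scale and Slc2a10 by 1.90.

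**Figure D3:**
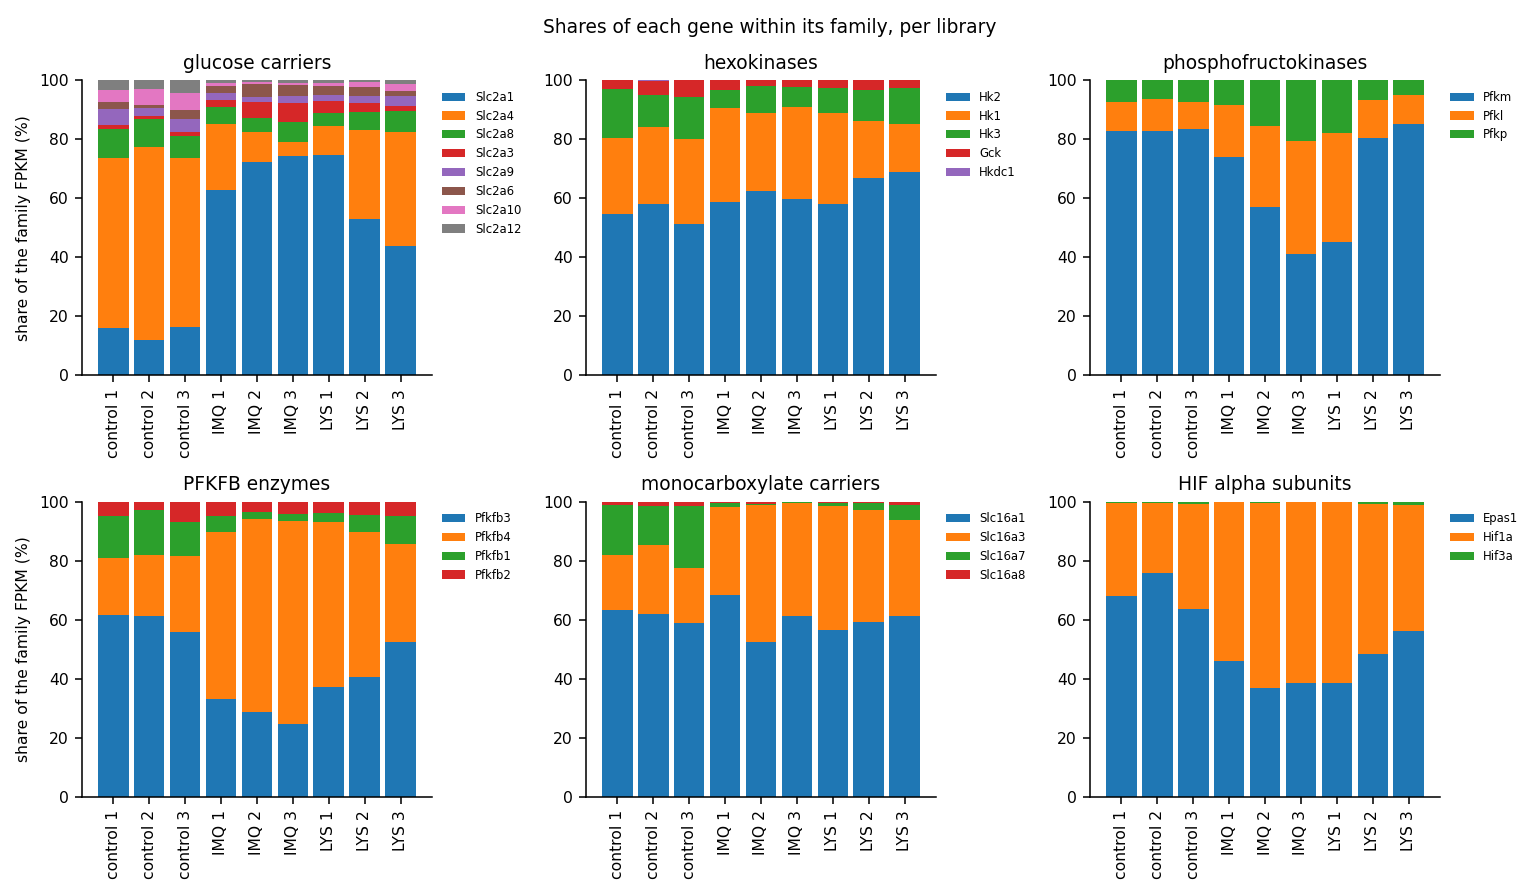
Share of the summed FPKM of a gene family (y axis, percent, stacked to 100) held by each gene in each of the 9 libraries, for 6 families around glycolysis. In the IMQ libraries Slc2a1 takes over from Slc2a4 among the SLC2 glucose carriers shown. Pfkfb4 takes over from Pfkfb3 among PFKFB enzymes and Hif1a from Epas1 among HIF α subunits. The LYS libraries vary widely, some of them beyond both other groups (Pfkm at 85.1% and Hk1 at 16.3% in LYS 3).

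Both hexokinases that trap glucose were called higher in the IMQ and in the LYS group than in the control group. Hk1 (chr10:62268855-62379908, minus strand), the widely expressed form, was at 46.8, 56.8 and 54.4 CPM in the control, 120, 124 and 128 in the IMQ and 128, 80.8 and 70.8 in the LYS libraries. Hk2 (chr6:82725025-82774454, minus strand), the inducible form, was at 69.8, 88.2 and 67.3 CPM in the control, 155, 204 and 171 in the IMQ and 169, 198 and 209 in the LYS libraries. No IMQ library overlapped with a control library for either gene, and for Hk2 the LYS libraries lay within or above the IMQ range. The log2 fold change of IMQ over control was 1.23 for both, with an SE of 0.12 for Hk1 (adjusted p = 8.43e-05 by edgeR) and 0.15 for Hk2 (adjusted p = 0.000309 by edgeR).

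In the LYS group, Hk2 had a log2 fold change of 1.36 ± 0.16 over control (adjusted p = 0.00136 by edgeR) and Hk1 of 0.83 ± 0.23 (adjusted p = 0.0311). The call of Hk1 was lost when any library but LYS 3 was left out. The adjusted p was then 0.106, 0.0693 and 0.0787 without control libraries 1, 2 and 3 and 0.0560 without LYS 2, and without LYS 1 the log2 value was 0.54. Against the IMQ group the log2 difference was -0.35 for Hk1 (95% interval -0.85 to 0.15) and 0.19 for Hk2 (-0.18 to 0.56), neither called. Without library LYS 1, Hk1 was called lower in the LYS than in the IMQ group (log2 -0.63, adjusted p = 0.0136 by edgeR). That fit called 26.8% of all 15895 genes tested, 14.9% higher and 11.9% lower. Of the family's FPKM, Hk2 held 54.6% ± 3.43 in the control, 60.3% ± 1.89 in the IMQ and 64.7% ± 5.74 in the LYS group, so it was the leading hexokinase throughout.

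At the committing step the 2 members behaved differently. Pfkp (chr13:6579768-6648777, minus strand), the platelet-type phosphofructokinase, was at 70.4, 70.1 and 70.4 CPM in the control, 112, 150 and 152 in the IMQ and 178, 101 and 86.1 in the LYS libraries. All IMQ and LYS libraries were above all control libraries. The log2 fold change of IMQ over control was 0.96 ± 0.14 (adjusted p = 0.000580 by edgeR); it was 0.51, and not called, with library totals alone, a scaling that moves the median of all genes from -0.062 to -0.51. In the LYS group it was 0.80 ± 0.27 over control and was not called (adjusted p = 0.0539 by edgeR). It was called by DESeq2 (adjusted p = 0.0209), by edgeR with all 9 libraries (0.0349) or without the filter (0.0328), and without library LYS 3 (0.0163).

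By FPKM, Pfkp held a smaller share than Pfkm in every library. The length used for the FPKM of Pfkp was 13401 bases, the longest of the members. It joins the exons of 13 transcripts, 4 of them coding, so the level and share of Pfkp depend on this length. Pfkm, the muscle phosphofructokinase, held 82.6% to 83.6% of the family's FPKM in the control libraries, 73.9%, 57.1% and 41.2% in IMQ libraries 1 to 3 and 45.0%, 80.5% and 85.1% in LYS libraries 1 to 3. Skeletal muscle marker sums in those libraries were 6559, 6096 and 2410 CPM and 5894, 8288 and 11518 CPM, so within each of the 2 groups the library with least muscle signal also had the lowest Pfkm share; the part of muscle in the share was not tested. Pfkp held 7.02% ± 0.59 in the control, 14.9% ± 6.21 in the IMQ and 9.86% ± 6.87 in the LYS group.

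Pfkfb3 (chr2:11471433-11554077, minus strand) makes and breaks down fructose 2,6-bisphosphate, the activator of phosphofructokinase, with synthesis prevailing. It was at 132, 151 and 98.8 CPM in the control, 99.5, 112 and 86.5 in the IMQ and 113, 101 and 123 in the LYS libraries, so all groups overlapped. The log2 difference of IMQ from control was -0.36 ± 0.17 (adjusted p = 0.0973 by edgeR), and it was called lower, at -0.81, with library totals alone. Its relative Pfkfb4 was called higher in the IMQ group (29.8 ± 2.96 against 143 ± 29.4 CPM, log2 2.25, adjusted p = 3.76e-05 by edgeR). By share of the family's FPKM, Pfkfb3 held 59.4% ± 3.25 in the control and 28.9% ± 4.23 in the IMQ group, and Pfkfb4 22.0% ± 3.36 and 63.5% ± 6.27. The LYS libraries held 37.2%, 40.7% and 52.6% for Pfkfb3 and 56.0%, 48.9% and 32.9% for Pfkfb4, without overlap with the IMQ libraries (exact permutation p = 0.1 for each, the smallest possible, and 0.209 after adjustment).

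Of the most abundant members, Pkm was called higher in the IMQ group and Aldoa and Ldha were not called. Aldoa (chr7:126795234-126800751, minus strand), the aldolase of muscle and most tissues, was at 1463, 1741 and 1379 CPM in the control, 1845, 1709 and 1312 in the IMQ and 1406, 1549.9 and 1659 in the LYS libraries. The groups overlapped throughout, and the log2 difference of IMQ from control was 0.079 ± 0.20 (adjusted p = 0.753 by edgeR), with -0.36 under library totals alone. Aldoa held 99.7% ± 0.11 of the aldolase FPKM in the control, 98.5% ± 0.44 in the IMQ and 99.3% ± 0.68 in the LYS group. The second Aldoa entry (chr7:126800790-126809108, minus strand) lies immediately upstream and is annotated with 2 transcripts, 1 of them coding. It was near the floor, at 4.83, 4.90 and 3.36 CPM in the control, 1.34, 1.64 and 0.586 in the IMQ and 1.74, 2.26 and 4.01 in the LYS libraries, and was called lower in the IMQ group (log2 -1.88 ± 0.38, adjusted p = 0.00317 by edgeR). It was the only entry of the 11 whose LYS and IMQ libraries did not overlap (38.9% of all genes tested did not), with a log2 difference of 1.24 ± 0.50 that was not called (adjusted p = 0.126 by edgeR).

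Pkm (chr9:59656368-59679375, plus strand) encodes pyruvate kinase M1 and M2, spliced from the same transcript, which counts per gene cannot separate. It was at 573, 601 and 565 CPM in the control, 1020.5, 945 and 949 in the IMQ and 1178, 812 and 701 in the LYS libraries, with all treated libraries above all control libraries. The log2 fold change of IMQ over control was 0.74 ± 0.14 (adjusted p = 0.00252 by edgeR), and 0.29, not called, with library totals alone. In the LYS group it was 0.64 ± 0.23 over control (adjusted p = 0.0656 by edgeR, not called). It was called by DESeq2 (adjusted p = 0.0182), by edgeR with all 9 libraries (0.0358) and without library LYS 3 (0.0267). The annotation gives another gene on the same strand, Gm49759, 15.3% of the exon bases of Pkm, so part of its reads could have been left uncounted.

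Ldha (chr7:46841475-46855627, plus strand), which makes lactate, was at 808, 972 and 781 CPM in the control, 1174, 1174 and 1055 in the IMQ and 1401, 998 and 919 in the LYS libraries. Every IMQ library was above every control library, yet the log2 fold change of 0.40 ± 0.16 was below the threshold (adjusted p = 0.0613 by edgeR), and it was -0.039 with library totals alone. Its share of the lactate dehydrogenase FPKM was 88.1% ± 0.97 in the control, 92.2% ± 0.72 in the IMQ and 92.2% ± 1.66 in the LYS group. Slc16a3 (chr11:120948480-120960868, plus strand), which exports lactate, was at 27.0, 32.1 and 26.2 CPM in the control, 71.5, 140 and 119 in the IMQ and 135, 88.9 and 53.7 in the LYS libraries. Every treated library was above every control library, and the treated libraries spread widely. The rise over control was 1.94 ± 0.23 on the log2 scale in the IMQ group (adjusted p = 0.000261 by edgeR) and 1.71 ± 0.32 in the LYS group (adjusted p = 0.00702). The share of Slc16a3 among 4 monocarboxylate carriers rose from 20.2% ± 2.91 to 38.2% ± 8.27 in the IMQ group and was 37.6% ± 4.79 in the LYS group, while Slc16a1 (MCT1) held 61.4%, 60.7% and 59.0%. Slc16a7 (MCT2) fell by 3.66 on the log2 scale in the IMQ group (adjusted p = 0.000187 by edgeR).

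Hif1a (chr12:73901375-73947530, plus strand), the oxygen-regulated subunit itself, was at 91.3, 74.6 and 86.9 CPM in the control, 288, 369 and 323 in the IMQ and 315, 286 and 174 in the LYS libraries. All treated libraries were above all control libraries, and LYS 3 was the lowest of them. Hif1a was 1.95 ± 0.14 higher than control on the log2 scale in the IMQ group (adjusted p = 3.25e-05 by edgeR) and 1.62 ± 0.24 in the LYS group (adjusted p = 0.00312). Between the LYS and IMQ groups the log2 difference was -0.28, with a 95% interval from -0.81 to 0.26. Of the HIF α subunits' FPKM, Hif1a held 30.2% ± 6.01 in the control, 59.2% ± 4.85 in the IMQ and 51.7% ± 9.43 in the LYS group, and Epas1 (HIF-2α) 69.1% ± 6.10, 40.5% ± 4.91 and 47.6% ± 8.95.

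**Figure D4:**
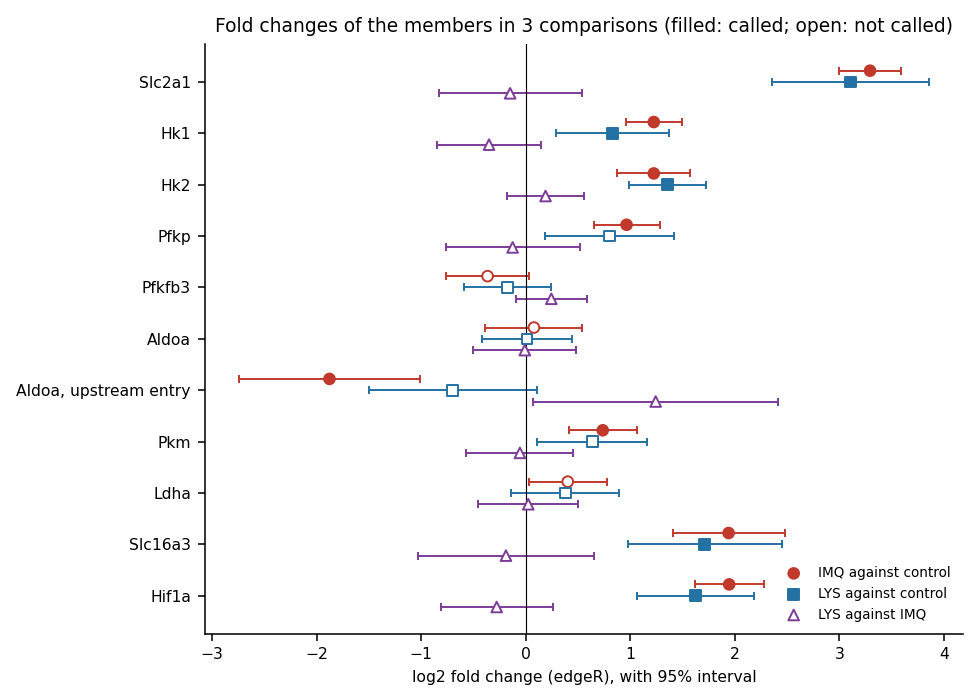
Log2 fold change (x axis) of each entry in the comparisons of IMQ with control, LYS with control and LYS with IMQ, with 95% intervals from edgeR's quasi-likelihood fit (n = 3 libraries per group); filled symbols were called. All LYS against IMQ symbols are open, and those intervals include 0 for every entry but the upstream Aldoa entry.

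None of the 11 entries was called between the LYS and IMQ groups by edgeR, where 0 of 15460 genes were called (0%), although 35.2% of them had an unadjusted p under 0.05; among the members only the second Aldoa entry did. DESeq2 called 21.8% of the same genes and none of the members, and a single edgeR fit of all 9 libraries called 18.5% of genes and none of the members. The same fit on library totals alone called 22.0% of genes, and of the members only the second Aldoa entry, which was higher (log2 1.50, adjusted p = 0.0400 by edgeR). Without library LYS 1, 26.8% of genes were called, and of the members Hk1 alone, as given above. The median log2 difference of the members was -0.055, beside 0.036 over all genes. The log2 differences not yet given were -0.12 for Pfkp, -0.19 for Slc16a3, -0.055 for Pkm, -0.0085 for Aldoa, 0.025 for Ldha and 0.25 for Pfkfb3; with library totals alone those of Pfkp, Slc16a3, Pkm and Aldoa turned to 0.13, 0.070, 0.19 and 0.24. Their 95% intervals ran from -1.03 to 0.65 for Slc16a3, the widest of these, and from -0.094 to 0.58 for Pfkfb3, the narrowest. Placed between the control mean (0) and the IMQ mean (1) on the log2(CPM + 1) scale, the LYS libraries averaged 0.91 ± 0.19 for Slc2a1, 0.84 ± 0.35 for Slc16a3, 0.81 ± 0.24 for Hif1a, 0.80 ± 0.52 for Pkm, 0.75 ± 0.57 for Pfkp, 0.63 ± 0.36 for Hk1 and 1.10 ± 0.13 for Hk2 (SD, n = 3). Over control, 5 entries were called higher in the LYS group (Slc2a1, Slc16a3, Hif1a, Hk2 and Hk1) and none lower, where 28.0% of 16003 genes were called (15.1% higher and 12.9% lower). The median log2 fold change of the 11 entries was 0.80, beside -0.0077 over all genes, and 7 of the 11 did not overlap with control, against 50.3% of all genes. Without library LYS 3, 8 entries were called, with Pfkp and Pkm added higher and the second Aldoa entry added lower.

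The 3 LYS libraries differed among themselves in the same order for most members. For Slc2a1, Hk1, Pfkp, Pkm, Ldha, Slc16a3 and Hif1a library LYS 1 was the highest and LYS 3 the lowest, while Hk2, Aldoa and the second Aldoa entry ran the other way. In LYS 1, LYS 2 and LYS 3 the summed CPM was 13342, 8433 and 7577 for basal keratinocyte markers and 17450, 16346 and 5936 for neutrophil markers, and 9372, 14961 and 18133 for fibroblast and 5894, 8288 and 11518 for skeletal muscle markers. Suprabasal keratinocyte (28033, 14456 and 15846), T cell (45.2, 51.1 and 38.1) and hair follicle markers (31.5, 32.7 and 11.8) followed neither order. The part of these cell types in the order was not tested.

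The genes whose pattern over the 9 libraries was nearest to Slc2a1, by root mean square difference of centred log2(CPM + 1) among 16381 genes, were Gm47128 (0.183), Crabp2, a retinoic acid-binding protein (0.210), and Tmigd1 (0.248). Crabp2 averaged 17.3, 225 and 147 CPM in the control, IMQ and LYS groups. The nearest to Hif1a were Tpd52 (0.102), 2010008C14Rik (0.119) and Gm15845 (0.127), with Tpd52 at 61.0, 240 and 184 CPM. This likeness is a description, and all of the genes share the same 9 libraries.

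The rest of the pathway was read from lists of its genes. Among 17 tested glycolytic enzymes other than the members, 6 were called higher and 3 lower in the IMQ group, with a median log2 fold change of 0.22. With library totals alone, 4 were called higher and 4 lower, and the median was -0.24. That scaling moved all genes downward: of 15976 tested, 2390 were called higher and 6854 lower, and their median was -0.51. List counts under library totals alone are therefore to be read beside these values. The enolase Eno1 was at 302 ± 15.5 CPM in the control and 879 ± 74.8 in the IMQ group (log2 1.53, adjusted p = 7.88e-05 by edgeR), and the aldolase Aldoc (log2 2.40) and the phosphoglycerate mutase Pgam1 (log2 1.27) were also called higher. The 3 lower genes were Bpgm (log2 -1.10), which makes 2,3-bisphosphoglycerate in red cells, and the muscle forms Pgam2 (-1.40) and Eno3 (-1.36). Summed red blood cell markers were 343 to 908 CPM in the control and 144 to 321 in the IMQ libraries, and muscle markers fell as given above; their part was not tested. Among the list's remaining genes, 4 were too low to test. Of 15 tested carriers, 4 were called higher, Slc16a1 (log2 0.97) among them, and 4 lower, and with library totals alone 3 higher and 7 lower. The part of the carriers called in the main fit was also near that of all genes.

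In the list of flux regulators and pyruvate entry, transcripts were mostly lower. The list joins PFKFB enzymes, Tigar and the Pdk kinases with the genes that bring pyruvate in, so its counts do not measure pyruvate entry alone. Of 17 genes that set the flux or bring pyruvate into mitochondria, 11 were called lower and 2 higher in the IMQ group, with a median log2 fold change of -0.86. Over all genes tested, 26.9% were called lower and 24.1% higher. The lower ones included Mpc2, a subunit of the mitochondrial pyruvate carrier (101 ± 17.9 against 48.3 ± 4.69 CPM, log2 -1.06, adjusted p = 0.000593 by edgeR), Pdp1, a pyruvate dehydrogenase phosphatase (log2 -1.19), and Pdhb, a subunit of that enzyme (-0.86). Besides Pfkfb4, the higher one was Pdk3, a kinase that inhibits pyruvate dehydrogenase (log2 0.60, adjusted p = 0.0245 by edgeR). Of 18 tested genes of gluconeogenesis, glycogen and hexosamine synthesis, 14 were called lower and none higher (median -1.19), among them Fbp1 (log2 -4.08), Gfpt2 (-2.53) and Uap1 (-1.10). All 17 of these genes tested between the LYS and IMQ groups were higher in the LYS group, at a median log2 difference of 0.84; none was called in the main fit and 4 were called higher in the fit of all 9 libraries. Between the same groups 10 of 10 adipocyte (median log2 difference 1.44), 9 of 9 fibroblast, 8 of 8 endothelium and 9 of 10 macrophage markers were also higher in the LYS group, and the part of these cells was not tested. In the pentose phosphate pathway 3 of 8 were called higher in the IMQ group, Pgls, Rpia and Pgd, and 2 lower, H6pd and Tkt. With library totals alone, 0 were called higher and 2 lower, beside 2390 and 6854 of all 15976 genes tested.

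Oxygen sensing and HIF targets were mixed. Of 15 genes of HIF subunits and oxygen sensing, 4 were called higher and 1 lower in the IMQ group. For this list and the HIF targets, the shares over all genes tested were 24.1% higher and 26.9% lower. Egln3, a prolyl hydroxylase that marks HIF-α for destruction and is itself a HIF target, was at 32.5 ± 3.20 CPM in the control, 630 ± 215 in the IMQ and 356 ± 322 in the LYS group (log2 4.27 for IMQ over control, adjusted p = 2.31e-05 by edgeR). Egln1 (log2 1.21) and Cited4 (2.30) were also higher, and Arnt2 was lower (-0.85). Of 27 tested HIF targets outside glycolysis, 10 were called higher and 10 lower, so the list did not move one way. With library totals alone the counts were 8 and 11, where 2390 of all 15976 genes tested were called higher and 6854 lower. Fam162a rose from 38.8 ± 3.61 to 388 ± 80.6 CPM (log2 3.31), Car12, a carbonic anhydrase, by 2.77 and Bnip3l, a mitophagy receptor, by 2.03 on the log2 scale. Plod2 (log2 -2.59) and P4ha2 (-1.46), which hydroxylate collagen, and Adm (-1.85), a vasodilator peptide, were lower. Between the LYS and IMQ groups no gene of the 7 lists was called in the main fit, which called no gene at all. The edgeR fit of all 9 libraries called 7 HIF targets higher and 2 lower, 2 carriers and 4 genes of gluconeogenesis, glycogen and hexosamine synthesis higher, and 1 or 2 genes in each of the other lists, where 18.5% of all genes were called. Over control the LYS group had 8 HIF targets called higher and 2 lower, where 15.1% of all genes were called higher and 12.9% lower. These lists were drawn up with earlier results of the same libraries known, so their counts are descriptions.

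**Figure D5:**
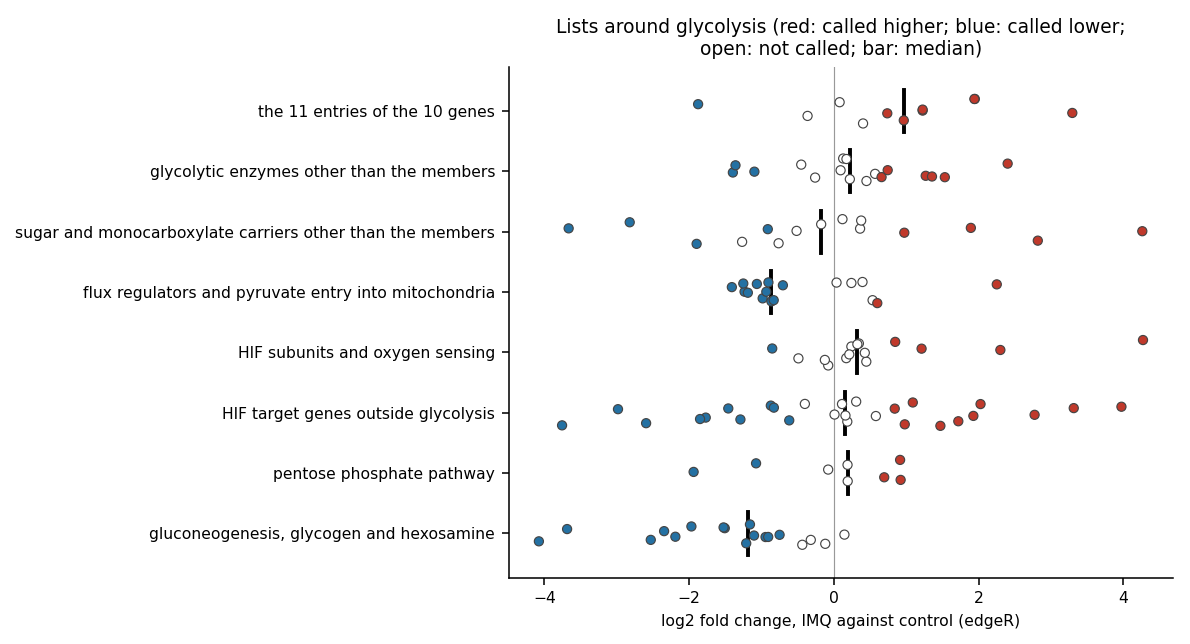
Log2 fold change of IMQ over control (x axis, edgeR) for each tested gene of the members and of 7 lists around glycolysis; each point is a gene, red and blue points were called higher and lower, open points were not called, and the bar is the median. The median is 0.96 for the members, -0.86 for flux regulators and pyruvate entry and -1.19 for gluconeogenesis, glycogen and hexosamine synthesis.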

How the data were processed

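Back skin RNA of 9 libraries (3 control, 3 IMQ, 3 LYS) was prepared with the NEBNext Ultra kit. The submitters' processing notes name HISAT2, HTSeq 0.13.5 and build GRCm38, without settings or strand. The authors deposited raw read counts per Ensembl gene, which have no normalization, and the deposited FPKM, whose gene length equalled the exon length of the GRCm38 annotation for all 11 entries. Counts were tested with edgeR 4.0.16 (R 4.3.3; TMM, filterByExpr, quasi-likelihood, Benjamini-Hochberg over all genes) on only the 6 libraries compared. The scripts were tested on simulated data. DESeq2 1.42.0, limma 3.58.1 on log2(FPKM + 1) or log2(FPKM + 0.1), other scalings, filters and fits, and each library left out served as alternatives; the fit of all 9 libraries with library totals alone was chosen after seeing the data. Libraries of a group differed by more than counting noise. The members and gene lists were chosen with earlier results of these data known. Named from each list, in each direction of IMQ against control, were the 3 called genes with the smallest p and a mean of at least 1 CPM, and for Slc2a1 and Hif1a the 3 nearest genes. Sequences are from RefSeq (GRCm38.p6), and all 10 symbols matched; the 50 bases after each start were left out. Opposite-strand genes share 0% to 5.60% of the exon bases of the entries, and since the strand setting is not given in the sources used here, their reads may be mixed. Figures used matplotlib 3.10.9.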

Additional observations from a re-analysis of the deposited data

How the results depend on the processing

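Over IMQ against control, 6 to 8 of the 11 entries were called under every alternative, and 8 without any single library; Pfkp and Pkm lost their call with library totals alone and with limma on FPKM, and Pfkfb3 was then called lower. Between LYS and IMQ the count was 0, and leaving out each library gave 0 to 1 (Hk1 without LYS 1, log2 -0.63, where 26.8% of all genes were called). The count was also 1 when all 9 libraries were fitted together on library totals alone. There the second Aldoa entry was called higher (log2 1.50), and 22.0% of all genes were called. Over LYS against control 5 were called, and leaving out each library gave 4 to 8, with 8 without LYS 3; DESeq2 and edgeR with all 9 libraries each called 7, Pfkp and Pkm included. The deviations of same-numbered libraries correlated between -0.46 and 0.20. The highest value was that of control 3 and IMQ 3, where the best match also had the same number. With 3 libraries per group, this check cannot exclude a pairing by number. With the number as a replicate block, 8, 0 and 4 entries were called in IMQ against control, LYS against IMQ and LYS against control; Hk1 was lost in the last (adjusted p = 0.0808 by edgeR), and calls over all genes there went from 4476 to 3126.

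Only differences that were not called changed sign. For IMQ against control, Aldoa was -0.36 with library totals alone (pairwise and with all 9 libraries), -0.38 with limma at both pseudocounts and between -0.0091 and 0.23 without single libraries, and Ldha was -0.039 with library totals alone (both fits) and -0.042 with limma (both pseudocounts). For LYS against IMQ, in the order library totals alone (pairwise and with all 9 libraries), limma with 1 and limma with 0.1 added, Pfkp was 0.13, 0.074 and 0.078, Slc16a3 0.070, 0.028 and 0.027, Slc2a1 0.095 (0.094 with all 9), 0.026 and 0.025, Pkm 0.19, 0.17 and 0.17, and Aldoa 0.24, 0.25 and 0.26. Aldoa was 0.00077 with the replicate block, and Ldha was -0.037 with all 9 libraries. Without single libraries these differences ran from -0.48 to 0.060 for Pfkp, -0.55 to 0.078 for Slc16a3, -0.56 to 0.073 for Slc2a1, -0.28 to 0.082 for Pkm, -0.14 to 0.094 for Aldoa and -0.17 to 0.13 for Ldha. For LYS against control, Aldoa was -0.12 with library totals alone and with limma, -0.010 without the filter and -0.056 to 0.10 without single libraries. The causes were not tested. Counting depth limits only the second Aldoa entry, whose level was below 5 CPM.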

Other observations

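Among the HIF targets outside glycolysis, 5 genes act on collagen: the prolyl hydroxylase subunits P4ha1 and P4ha2, the lysyl hydroxylases Plod1 and Plod2, and the lysyl oxidase Lox. This subset was picked after its values had been seen and has no test of its own. In the IMQ group all 5 were called lower than in the control group by edgeR, where 26.9% of all genes were called lower. Their log2 fold changes were -0.87, -1.46, -1.29, -2.59 and -1.77. Between the LYS and IMQ groups their log2 differences were 0.93, 1.15, 1.28, 0.72 and 1.38, none of them called in the fit of these 6 libraries, which called no gene at all (adjusted p = 0.0591 to 0.153 by edgeR). Fibroblast marker sums were 22217 to 28327 CPM in the control, 3438 to 10852 in the IMQ and 9372 to 18133 in the LYS libraries, and their part in these values was not tested.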
